A study of Mus musculus with 2 samples.

Results

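The Sox6 and Sox5 genes encode a pair of SOXD transcription factors, and the peaks described here are those that ChIP-seq in mouse primary rib chondrocytes placed in and around these genes. Members were chosen by position alone: every peak of either list with its centre inside a window of the mouse genome build mm9 around each gene was taken. The Sox6 gene window was chr7:122600000-123250000 (650 kb) and the Sox5 gene window was chr6:143760000-144750000 (990 kb). They held 279 of the 102972 peaks in the lists. Of these, 229 were among the 79107 Sox6 peaks (97 in the Sox6 gene window and 132 in the Sox5 gene window) and 50 were among the 23865 Sox9 peaks (20 and 30). A Sox6 peak is a called site of an immunoprecipitation with an antibody to SOX6, made once, from untreated wild-type ICR mice on postnatal day 1, with 1 input DNA sample from the same kind of cells. The dissection kept the proliferative and prehypertrophic zones of the rib cartilage and left out the mature hypertrophic zone. Peak positions give no expression level, so the labelled cell type could not be checked against marker genes. A Sox9 peak is a site in a list that the authors called again, in the same way, from earlier SOX9 ChIP-seq samples of rib chondrocytes. For those animals the strain, age and genotype could not be taken from the labels, and no build is named for that list apart from the other, so it was read as mm9.

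SOX9 is the HMG-box factor that cartilage formation requires, and SOX5 and SOX6 act beside it in chondrocytes. All 3 proteins bind the minor groove of DNA through the HMG box and bend it. SOXD proteins pair with each other through a coiled coil and have no known activation domain of their own, and mice that lack both Sox5 and Sox6 form very little cartilage. In cartilage the expression of Sox5 and Sox6 depends on Sox9. Peaks in these windows therefore concern a gene that encodes the precipitated protein (Sox6), the gene of its close relative (Sox5) and a factor that acts upstream of both.

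Both are long genes. The RefSeq gene table of the build GRCm38.p6 gives Sox6 a length of 569.9 kb and Sox5 a length of 953.9 kb. Each gene lies on the minus strand, so that transcription runs from high to low coordinates. According to that table no other protein-coding gene lies inside either gene. The coding neighbours are Insc on the low-coordinate side of Sox6, and Etnk1 and Bcat1 on the low- and high-coordinate sides of Sox5. Noncoding genes inside the spans include Sox6os in Sox6 and Sox5os3 and Sox5os4 in Sox5. Peak positions below are in mm9 and were not converted, so no peak was assigned to an exon, intron, UTR or promoter, and an mm9 genome from which to read the bases under a peak was not used here.

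RefSeq promoter windows, which run from 250 bases before to 50 after a transcription start, show the sequence around annotated starts of the genes. The table held 6 promoters for Sox6 and 1 for Sox5, and most of these starts are internal. The Sox6 start farthest upstream lies 2.03 kb inside the 5′ end of the gene in RefSeq, and the others lie 9.73 to 239 kb inside it. The Sox5 start lies 835 kb inside the 5′ end of Sox5, in the part of the gene nearest its 3′ end, so it is not where the long transcripts begin. SOX proteins bind short AT-rich cores, and 2 of these were searched on both strands: ACAAT (reverse complement ATTGT) and ACAAAG (reverse complement CTTTGT). At least 1 core was present in 6 of 6 Sox6 promoters and in the promoter of the internal Sox5 start, beside 42.9% of the 32851 promoters in the table. ACAAT alone was found in 31% of all promoters and ACAAAG in 18.7%. No pair of cores overlapped in these 7 promoters. To show both ends of this range, 3 sequences are printed with the cores in capitals: the Sox6 promoter farthest upstream, with 1 core, a Sox6 promoter 43.7 kb downstream of it, with 4 (no Sox6 promoter had more), and the promoter of the internal Sox5 start, with 1. A core is a match of letters only, and whether a peak lies on it was not determined. All 3 are read 5′ to 3′ on the minus strand of GRCm38.p6, at chr7:116038695-116038994, chr7:115995037-115995336 and chr6:143947057-143947356 in the order printed.
Sox6 promoter farthest upstream: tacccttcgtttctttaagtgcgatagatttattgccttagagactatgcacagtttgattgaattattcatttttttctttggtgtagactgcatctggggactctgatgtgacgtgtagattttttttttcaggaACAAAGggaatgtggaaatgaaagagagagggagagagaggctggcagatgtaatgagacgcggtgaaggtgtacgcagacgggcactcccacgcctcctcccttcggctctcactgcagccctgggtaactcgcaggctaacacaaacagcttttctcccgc
Sox6 promoter with 4 cores: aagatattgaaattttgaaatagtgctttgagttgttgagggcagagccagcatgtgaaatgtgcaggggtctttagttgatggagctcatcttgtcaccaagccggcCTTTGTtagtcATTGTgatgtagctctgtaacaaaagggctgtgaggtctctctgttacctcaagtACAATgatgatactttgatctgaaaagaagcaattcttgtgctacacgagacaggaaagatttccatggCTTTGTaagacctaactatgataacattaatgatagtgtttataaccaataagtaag
Sox5 promoter of the internal start: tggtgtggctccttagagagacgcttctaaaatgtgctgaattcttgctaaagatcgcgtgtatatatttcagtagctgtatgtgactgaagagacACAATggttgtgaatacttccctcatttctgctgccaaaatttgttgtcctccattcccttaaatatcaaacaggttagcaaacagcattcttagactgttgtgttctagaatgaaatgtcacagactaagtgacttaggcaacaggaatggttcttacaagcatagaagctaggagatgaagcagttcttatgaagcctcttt

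With the full lists, both genes were densely covered by Sox6 peaks, and less so by Sox9 peaks. The Sox6 gene window held 149 Sox6 peaks per Mb (95% exact Poisson interval 121 to 182) and the Sox5 gene window 133 (112 to 158), against 32.4 over the 19 autosomes. That is 4.61 times (3.74 to 5.62) and 4.12 times (3.45 to 4.89) the autosomal density. For Sox9 the windows held 30.8 per Mb (18.8 to 47.5) and 30.3 (20.4 to 43.3), against 9.83 over the autosomes. The Sox9 ratios were 3.13 (1.91 to 4.83) for the Sox6 gene and 3.08 (2.08 to 4.40) for the Sox5 gene. There were thus 4.85 Sox6 peaks for each Sox9 peak at the Sox6 gene and 4.40 at the Sox5 gene, against 3.31 over the whole lists. Cut to the length of the Sox9 list, the Sox6 list kept 24 peaks at the Sox6 gene and 29 at the Sox5 gene. These stood beside 20 and 30 Sox9 peaks, so the numbers of the factors were close at equal list length. Intervals cover counting error only and treat peaks as independent, which neighbouring peaks are not, so they are too narrow. With 1 list per factor and no replicate, no difference was tested.

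Few stretches of the genome carried as many Sox6 peaks. Of 3686 autosomal tiles of 650 kb laid end to end, 9 (0.244%) held 97 Sox6 peaks or more, and the median tile held 16. Among 2418 tiles of 990 kb, 4 (0.165%) held 132 or more, with a median of 26. With the full lists, Sox9 peaks were less unusual in number: 5.94% of the 650 kb tiles held 20 or more, and 4.80% of the 990 kb tiles held 30 or more. These shares describe the background and are not p-values. The genes and their windows were chosen with earlier results of these data known.

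Set against each other, the 2 genes had similar densities. The Sox6 gene window had 1.12 times the Sox6 peaks per Mb of the Sox5 gene window (0.852 to 1.47) and 1.02 times its Sox9 peaks per Mb (0.547 to 1.85). Both intervals include equality and are wide, above all for Sox9, so they do not show that the densities are the same. Their peaks were laid out differently along the genes, as described next.

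**Figure D1:**
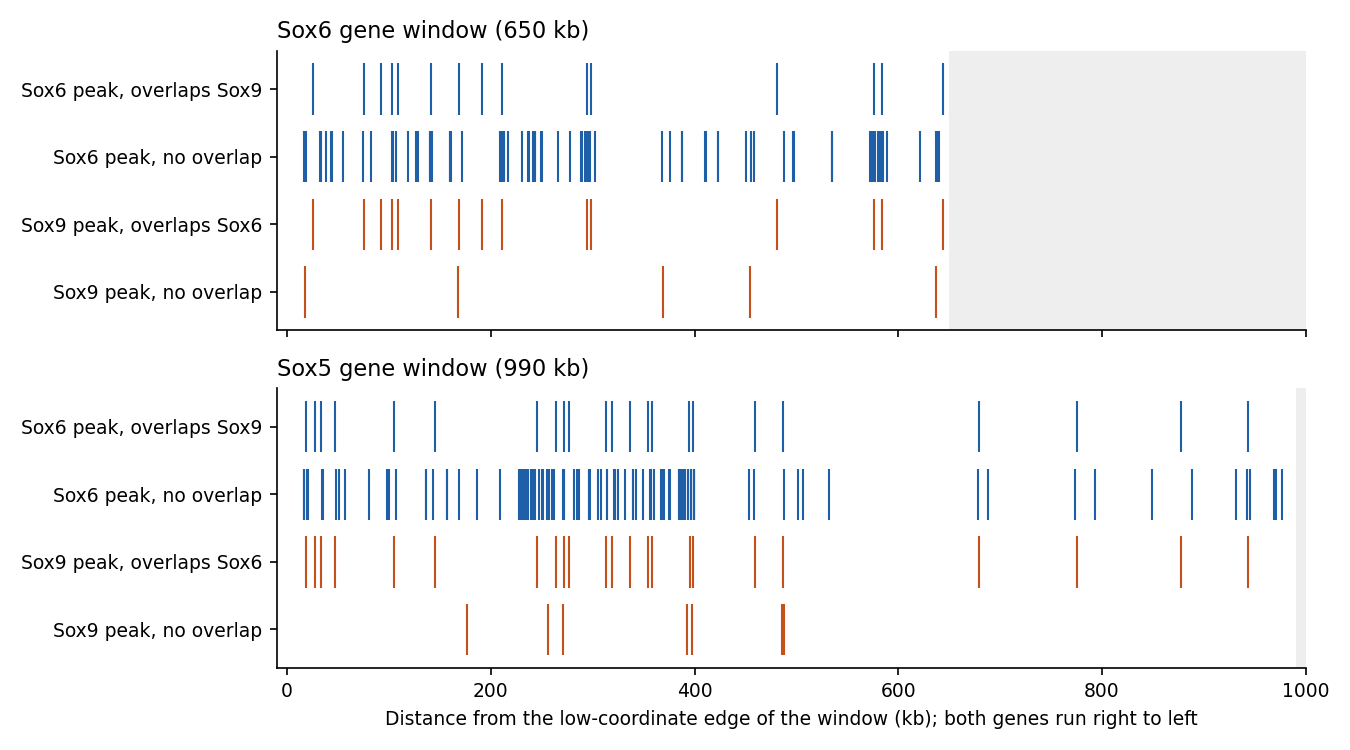
Positions of Sox6 peaks (blue) and Sox9 peaks (orange) in the windows of the Sox6 gene (top) and the Sox5 gene (bottom), in kb from the low-coordinate edge of each window and on one scale, with peaks that overlap the other list by at least 1 bp drawn apart from those that do not. Sox6 peaks are spread along the Sox6 window, whereas 80 of the 132 in the Sox5 window lie in 1 cluster left of its middle when centres up to 12.5 kb apart are joined; grey marks the area past a window's end.

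At the Sox5 gene most Sox6 peaks sat in 1 region. A cluster, here a run of 3 or more peaks of a list with neighbouring centres no more than 12.5 kb apart, covered chr6:143987881-144159980, a span of 172 kb, and held 80 of the 132 Sox6 peaks (60.6%). By number of peaks it ranked 5 among the 9068 Sox6 clusters of the genome. It held 15 Sox9 peaks, and 11 of its Sox6 peaks overlapped one (13.75%). Of the window's other Sox6 peaks 23.1% did (12.5 to 36.8), and of the whole Sox6 list 23.1%. Outside it the Sox5 window kept 52 Sox6 peaks in 818 kb, or 63.6 per Mb (47.5 to 83.4), which is 1.96 times the autosomal density (1.47 to 2.58). The fall follows from setting aside the fullest cluster, and the value only describes the rest of the window.

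At the Sox6 gene joining centres up to 12.5 kb apart gave no cluster of that size. Its 12 Sox6 clusters held 3 to 16 peaks each, and the largest, with 16, covered chr7:122674957-122742600. Without that cluster the Sox6 window still had 139 Sox6 peaks per Mb (110 to 173), or 4.30 times the autosomal density (3.41 to 5.34). The tightest was chr7:122808791-122816702, with 9 Sox6 peaks in 7.91 kb and 1 Sox9 peak. A cluster of 14 at chr7:123171666-123189320 lay toward the high-coordinate end and held 2 Sox9 peaks. In all, 93 of 97 Sox6 peaks of the Sox6 window were clustered (95.9%, exact binomial 95% interval 89.8 to 98.9) and 118 of 132 of the Sox5 window (89.4%, 82.8 to 94.1), against 62.9% of the whole list. A fixed joining distance joins more peaks where peaks are denser, and both windows are denser than the list. These shares, at any joining distance, are thus no trait apart from the density given above. The share expected at this density was not computed. The difference between the genes was 6.48 percentage points (-0.835 to 13.4), and it turned to -10.1 points (-22 to 1.83) when only centres within 5 kb were joined. The size of the largest cluster also depends on this distance. At 5 kb the largest held 14 of 97 Sox6 peaks (14.4%) at the Sox6 gene and 25 of 132 (18.9%) at the Sox5 gene, and at 25 kb 61 of 97 (62.9%) and 89 of 132 (67.4%). The contrast between 1 large cluster at the Sox5 gene and several small ones at the Sox6 gene is thus seen at 12.5 kb and not at 5 or 25 kb.

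Counts in bins of 50 kb need no such distance. In the Sox6 window every one of the 13 bins held a Sox6 peak, from 1 to 16 with a median of 6. The 20 bins of the Sox5 window ranged from 0 to 28 with a median of 4, and 4 of them were empty. The 200 kb with the most Sox6 peaks held 48.5% of them at the Sox6 gene, in 30.8% of its window, and 61.4% at the Sox5 gene, in 20.2% of its window. The longest stretch without a Sox6 peak was chr7:122901971-122968271 (66.3 kb) at the Sox6 gene and chr6:144291877-144438425 (147 kb) at the Sox5 gene, and neither held a Sox9 peak. When each window was cut into 3 equal parts, the low-coordinate, middle and high-coordinate parts held 41, 28 and 28 Sox6 peaks at the Sox6 gene and 73, 42 and 17 at the Sox5 gene. At both genes the low-coordinate part, toward the 3′ end of the gene, held the most Sox6 peaks, and at the Sox5 gene the high-coordinate part held the fewest.

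**Figure D2:**
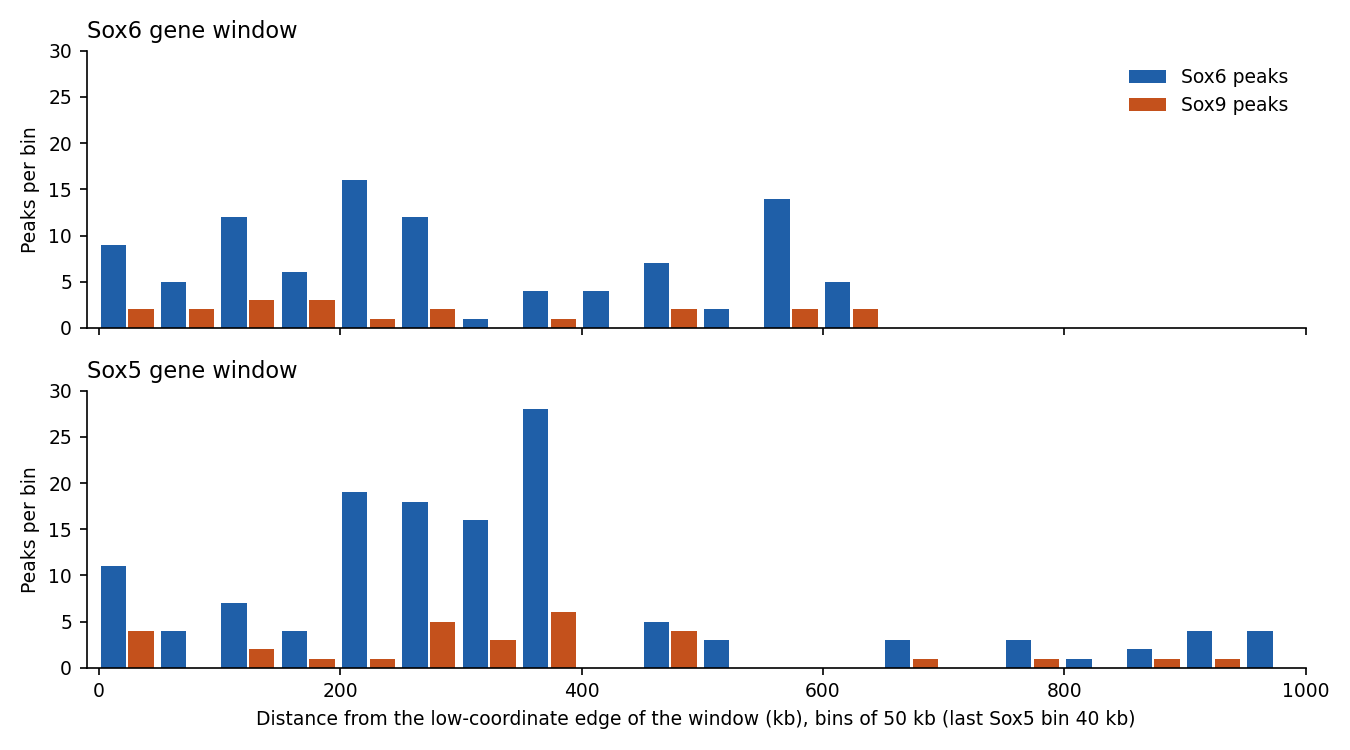
Number of Sox6 peaks (blue) and Sox9 peaks (orange) in bins of 50 kb along the windows of the Sox6 gene (top) and the Sox5 gene (bottom). The fullest Sox6 bin holds 16 peaks at the Sox6 gene and 28 at the Sox5 gene, where 4 bins hold none.

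Fewer Sox9 peaks were clustered at the Sox6 gene than at the Sox5 gene. At the Sox6 gene 3 of 20 Sox9 peaks were clustered (15.0%, 3.21 to 37.9), and at the Sox5 gene 16 of 30 (53.3%, 34.3 to 71.7), against 30.5% of the whole Sox9 list. The difference was -38.3 percentage points (-57.4 to -11.2, with clustered peaks counted as independent). It was -23.3 points both at 5 kb (-40.9 to -3.51) and at 25 kb (-47 to 3.48), where the interval includes 0. At 5 kb 0% of Sox9 peaks at the Sox6 gene were clustered, against 14.2% of the whole list. At 25 kb 50.0% were, close to the 48.7% of the whole list. The only Sox9 cluster at the Sox6 gene was chr7:122691996-122708520, and all 3 of its peaks overlapped a Sox6 peak. Of the 4 Sox9 clusters at the Sox5 gene, the largest was chr6:144005496-144036964 with 6 peaks, of which 4 overlapped a Sox6 peak. That cluster lies within the cluster of 80 Sox6 peaks, as does another with 4 Sox9 peaks at chr6:144152792-144158790. Close to the low-coordinate edge, chr6:143778733-143793308 held 3 Sox9 peaks, each on a Sox6 peak. The last, chr6:144245727-144248284, held 3 Sox9 peaks in 2.56 kb, of which 1 lay on a Sox6 peak.

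Most Sox9 peaks of both genes lay on a Sox6 peak, and most Sox6 peaks lay on no Sox9 peak. At the Sox6 gene 15 of 97 Sox6 peaks overlapped a Sox9 peak by at least 1 bp (15.5%, 8.92 to 24.2), and at the Sox5 gene 23 of 132 (17.4%, 11.4 to 25), against 23.1% of the whole Sox6 list. Seen from Sox9, 15 of 20 peaks at the Sox6 gene (75.0%, 50.9 to 91.3) and 23 of 30 at the Sox5 gene (76.7%, 57.7 to 90.1) overlapped a Sox6 peak, against 76.7% of the whole Sox9 list. All 4 intervals include the whole-list share, so no departure from it was detectable with these numbers of peaks. The Sox6 gene differed from the Sox5 gene by -1.96 percentage points for Sox6 peaks (-11.4 to 8.17) and by -1.67 for Sox9 peaks (-26.4 to 20.7). Each shared site was a pair of 1 Sox6 and 1 Sox9 peak, 15 pairs at the Sox6 gene and 23 at the Sox5 gene. The centres of a pair were a median of 39 bp apart at the Sox6 gene (6 to 106.5) and 25.5 bp at the Sox5 gene (0.500 to 101.5), against 40 bp over all shared Sox6 peaks. Centres were within 50 bp in 60.0% of the pairs at the Sox6 gene and in 78.3% at the Sox5 gene, against 58.7% of all shared Sox6 peaks.

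**Figure D3:**
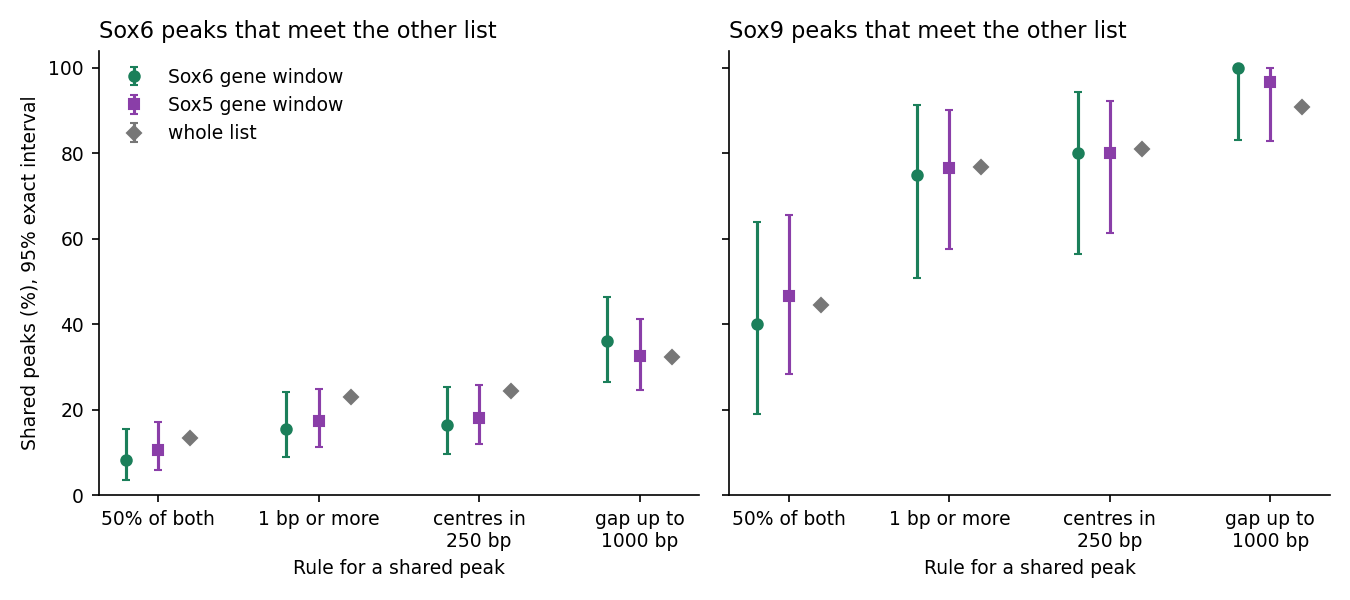
Share of Sox6 peaks (left) and of Sox9 peaks (right) that meet the other list under 4 rules, in the Sox6 gene window (circles), the Sox5 gene window (squares) and the whole list (diamonds), with exact binomial 95% intervals. Under the rule of 1 bp or more the Sox6 shares are 15.5%, 17.4% and 23.1%, and the Sox9 shares 75.0%, 76.7% and 76.7%.

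The lists carry no score, but overlap was concentrated among the Sox6 peaks that the authors listed early. The order of the lists is not documented, so places are given as a description and not as strength of binding. Of the Sox6 peaks in the first 10% of the list, 8 of 10 at the Sox6 gene and 10 of 11 at the Sox5 gene overlapped a Sox9 peak, against 70.8% of all early Sox6 peaks. In the last 50% of the list, 2 of 57 at the Sox6 gene (3.51%) and 4 of 81 at the Sox5 gene (4.94%) did, against 8.02%. Shared Sox6 peaks had a median place of 8.25% of the list at the Sox6 gene and 12.4% at the Sox5 gene, and unshared ones of 67.5% and 65.6%. The whole Sox6 list shows the same fall in overlap from its early to its late part. Shared and unshared Sox6 peaks combined lay late in their list, with medians at 59.7% and 57.1%. Sox9 peaks lay early in theirs, with medians at 26.7% at the Sox6 gene and 32.3% at the Sox5 gene, and 4 of 20 and 7 of 30 were in the first 10%.

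**Figure D4:**
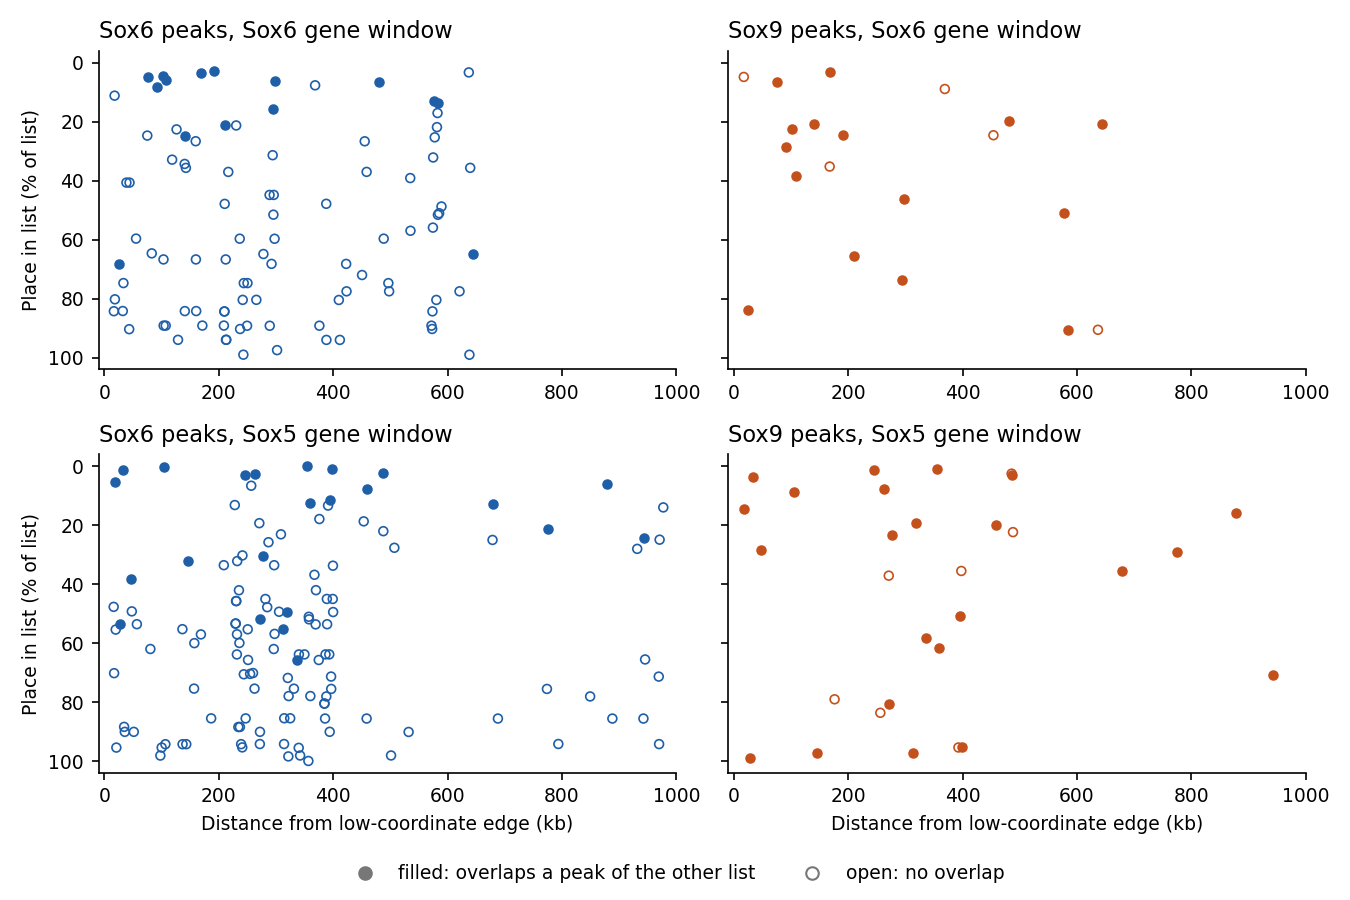
Place in the deposited list (0 is the top of the list) of each Sox6 peak (left) and Sox9 peak (right) against its distance from the low-coordinate edge, in the Sox6 gene window (top) and the Sox5 gene window (bottom), with filled points for peaks that overlap the other list. Of the Sox6 peaks within the first 10% of the list, 8 of 10 at the Sox6 gene and 10 of 11 at the Sox5 gene are filled. The points below are mostly open. Of all filled Sox6 points, 8 of 15 and 10 of 23 lie within that first 10%.

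The 5 earliest-listed Sox6 peaks at the Sox5 gene were shared and stood nearer the top of the list than those at the Sox6 gene. The Sox5 window holds more Sox6 peaks, 132 against 97, so its earliest places are expected to be lower. Of these peaks 8.33% at the Sox5 gene and 10.3% at the Sox6 gene were in the first 10% of the list. Sox6 peak 124 of the list lay at chr6:144114702-144114836, inside the cluster of 80, with its centre 25.5 bp from Sox9 peak 270, the earliest-listed Sox9 peak of either window. Next came Sox6 peak 258 at chr6:143864907-143865060, 96 bp from Sox9 peak 2075. Sox6 peak 837, at chr6:144158589-144158702 at the high-coordinate end of that cluster, was 59.5 bp from Sox9 peak 22767, which stands near the bottom of the Sox9 list. An early place in one list thus did not always go with an early place in the other. Peak 957, at chr6:143793189-143793311, paired with Sox9 peak 859 at 21 bp. The fifth, Sox6 peak 1811 at chr6:144246528-144246688, paired with Sox9 peak 755 at 26.5 bp, outside any Sox6 cluster. All 5 had a Sox9 partner.

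The other early shared sites of the Sox5 gene were spread from its low- to its high-coordinate part. Within the cluster of 80, Sox6 peak 2014 (chr6:144023547-144023656) met Sox9 peak 1857, and Sox6 peak 2463 (chr6:144005435-144005594) met Sox9 peak 340. Toward the 3′ end, Sox6 peak 4374 at chr6:143778774-143778897 had its centre 5.50 bp from Sox9 peak 3512. On the high-coordinate side of the cluster of 80, Sox6 peak 6277 at chr6:144218899-144219047 met Sox9 peak 4762. Farthest toward the 5′ side was Sox6 peak 4863 at chr6:144637706-144637860, a site in no cluster, 61.5 bp from Sox9 peak 3775. In the high-coordinate part of the window, which holds 17 Sox6 peaks, 4 of 4 Sox9 peaks were on a Sox6 peak. In the low-coordinate and middle parts 80.0% and 63.6% were, against 76.7% of the whole Sox9 list. So few peaks do not set the high-coordinate part apart. A single early Sox6 peak, in the first 10% of the list, had no Sox9 overlap: peak 5287 at chr6:144016580-144016788, 236 bases from the edge of Sox9 peak 19964.

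At the Sox6 gene the earliest-listed Sox6 peak stood at place 2269, after the 5 earliest of the Sox5 gene. It lay at chr7:122791342-122791512, 28.5 bp from Sox9 peak 5882, in no cluster of either list. The second, peak 2646 at chr7:123237027-123237092, overlapped no Sox9 peak, and 223 bases separated it from Sox9 peak 21618. Peak 2741 at chr7:122768491-122768600 paired with Sox9 peak 768 at 42 bp, and this Sox9 peak was the earliest-listed at the Sox6 gene. Of these sites, peak 2646 lay near the high-coordinate edge of the window, and peaks 2269 and 2741 lay in its low-coordinate part. Sox6 peak 3521 (chr7:122702613-122702841) was 6 bp from Sox9 peak 5375, and Sox6 peak 3935 (chr7:122675442-122675640) was 54 bp from Sox9 peak 1579. Both belong to the largest cluster of this gene, as do the shared Sox6 peaks 4812 (chr7:122708374-122708589) and 6527 (chr7:122692026-122692142). In total 5 of its 16 Sox6 peaks were shared (31.25%), against 12.3% of the window's other Sox6 peaks (6.08 to 21.5) and 23.1% of the whole list.

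Farther toward the 5′ side of the Sox6 gene, Sox6 peak 4906 at chr7:122897882-122898048 had its centre 20.5 bp from Sox9 peak 11000. Sox6 peak 5319 at chr7:123080560-123080714 was 65 bp from Sox9 peak 4707. Beside peak 2646, the early Sox6 peak without overlap was peak 6106 at chr7:122968272-122968446, 533 bases from Sox9 peak 2139. Early unshared Sox6 peaks at both genes numbered 3, and each had a Sox9 centre within 1000 bp. Over the whole list 10.3% of unshared Sox6 peaks, early or late, had one. The share among the 2306 early unshared peaks of the list was not computed, so 3 peaks show nothing particular to these genes. The widest peaks were not the early ones: the widest Sox6 peak was 488 bp at the Sox6 gene (place 78346, chr7:123237872-123238359) and 451 bp at the Sox5 gene (place 35651, chr6:144158955-144159405), and neither overlapped Sox9. The widest Sox9 peaks were 387 bp (chr7:122810573-122810959) and 339 bp (chr6:144118421-144118759), both on a Sox6 peak.

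Of all 23865 Sox9 peaks, 5563 overlapped no Sox6 peak. At the Sox6 gene 5 of 20 did not, and at the Sox5 gene 7 of 30, a similar share. Of these, 80.0% and 85.7% had a Sox6 centre within 1000 bp, against 58.8% of all unshared Sox9 peaks. Both windows are also denser in Sox6 peaks than the list. The 5 at the Sox6 gene are described first. One of them, Sox9 peak 1164 at chr7:122617592-122617732, was the second earliest of the window, and 2 bases separated it from the Sox6 peak at chr7:122617735-122617906. Whether such a site counts as shared is thus a matter of the rule. Sox9 peak 2139 at chr7:122968980-122969161 was 533 bases from a Sox6 peak and Sox9 peak 21618 at chr7:123236662-123236803 was 223 bases from one. The remaining pair, Sox9 peak 8413 at chr7:122767720-122767844 and Sox9 peak 5879 at chr7:123053934-123054133, lay 646 and 839 bases away. When edges were allowed to lie 1000 bp apart, 20 of 20 Sox9 peaks at the Sox6 gene had a Sox6 peak on or beside them.

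At the Sox5 gene 7 Sox9 peaks had no overlap. Sox9 peak 18871 at chr6:143936248-143936441 was the only one of either window with no Sox6 peak within that gap, 7414 bases from the nearest. Sox9 peak 618 at chr6:144245727-144245983, the third earliest of this window, lay 544 bases from Sox6 peak 1811, which Sox9 peak 755 occupied. In the cluster of 80, Sox9 peaks 19964 (chr6:144016284-144016343), 8870 (chr6:144030979-144031137), 22769 (chr6:144152792-144152844) and 8491 (chr6:144157815-144157976) were 236, 89, 97 and 612 bases from a Sox6 peak. Sox9 peak 5349 at chr6:144248174-144248284 was 506 bases from one. With the gap 29 of 30 Sox9 peaks had a Sox6 neighbour at the Sox5 gene, and 20 of 20 at the Sox6 gene, against 90.8% of the whole list.

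Sox9 peaks in the first 10% of their list were few in number at either gene, though they made up 20.0% and 23.3% of the Sox9 peaks there. Of 4 such peaks at the Sox6 gene 2 overlapped a Sox6 peak (exact binomial 6.76 to 93.2%), and of 7 at the Sox5 gene 6 did (42.1 to 99.6%), against 89.6% of all early Sox9 peaks. Both intervals are too wide to set the genes apart. Peak widths were similar at both genes: Sox6 peaks had a median of 165 bp at the Sox6 gene and 159 bp at the Sox5 gene, against 151 bp over the whole list, and Sox9 peaks 151 and 159 bp, against 183 bp.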

How the data were processed

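The authors deposited 2 peak lists in BED form, each of 3 columns without a header that place a peak on a chromosome by its first and last base. They hold no score, fold, p-value or read count, so depth is unknown and no peak was tested here against the input sample. Bowtie and the build mm9 are named per the submitters' processing notes, while the peak caller and its filters are not given in the sources used, and the tag FDR1 that both lists carry is not explained there. The Sox9 list is a re-analysis of 2 earlier samples called as the Sox6 list was, per the series' design text.

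Starts, counted from 0 in the files, are printed counted from 1. A peak belonged to a window when its centre lay in it, and counted as shared if at least 1 bp of it lay under a peak of the other factor. Density was set against the 2402 Mb that lie between the outermost peaks of the autosomes, summed over chromosomes. Intervals were exact (Clopper-Pearson or Poisson) or, for differences of shares, Newcombe's, at 95%, from SciPy 1.17.1 and statsmodels 0.14.6. Overlap, merging and cluster steps were tested on simulated peaks. Named peaks were the 5 earliest of each list per window, all unshared Sox9 peaks, early shared pairs, widest peaks, largest clusters and longest empty stretches. Any other cluster named here was picked with its values in view. The genes, windows and rules were chosen with earlier results of these data known. Promoters came from RefSeq, GRCm38.p6. Alternatives covered the overlap rule, the part of the list, merged peaks, window edges, cluster gaps and rank by width.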

Additional observations from a re-analysis of the deposited data

How the results depend on the processing

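Sox6 overlap shares moved most with the length of the Sox6 list. With that list cut to the length of the Sox9 list, the windows kept 24 Sox6 peaks at the Sox6 gene and 29 at the Sox5 gene, of which 54.2% and 51.7% were shared, against 49.9% of the cut list. Of Sox9 peaks 65.0% at the Sox6 gene (40.8 to 84.6) and 50.0% at the Sox5 gene (31.3 to 68.7) were then shared, against 50.3%. When the overlap had to cover 50% of both peaks, 8.25% and 10.6% of Sox6 peaks were shared, against 13.4% of the list, and 40% and 46.7% of Sox9 peaks, against 44.6%. With a gap of up to 1000 bp the Sox6 shares were 36.1% and 32.6%, against 32.3%, and the Sox9 shares 100% and 96.7%, against 90.8%. The Sox6 shares of both genes thus lay below that of the list under an overlap of 1 bp and above it under the gap and the cut list. The intervals of both genes included the list's share under each of these rules, so no departure in either direction was detectable. At the Sox5 gene they were 24.7 to 41.3% under the gap and 32.5 to 70.6% with the cut list. In the first 50% of each list there were 40 and 51 Sox6 peaks, and 14 and 18 Sox9 peaks. Counted against those Sox9 peaks only, 22.5% (10.8 to 38.5) and 27.5% (15.9 to 41.7) of these Sox6 peaks were shared. Of all Sox6 peaks in the first 50% of their list 22.5% were. Sox9 peaks of the last 50% were left out here, so these shares cannot be set beside those by place in the list.

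With a cluster gap of 5000 bp 64.9% and 75.0% of Sox6 peaks were clustered, against 39.8% of the list, so that the difference turned to -10.1 points, and with 25000 bp 97.7% at the Sox5 gene, against 80.1%. Gaps were also tried, after seeing the data, for other cluster results. At 5000 bp the largest Sox6 cluster held 18.9% of the Sox6 peaks at the Sox5 gene, and at 25000 bp 62.9% at the Sox6 gene. Of Sox9 peaks 0% and 23.3% were clustered at 5000 bp, against 14.2% of the list, and 50.0% and 73.3% at 25000 bp, against 48.7%. Also chosen after seeing the data were tiles moved along by part of their width, of which 0.381% (Sox6 gene width) and 0.333% (Sox5 gene width) held as many Sox6 peaks, and leaving out the largest cluster, which left 63.6 Sox6 peaks per Mb at the Sox5 gene.

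Shared minus unshared median place was -59.2 percentage points for Sox6 peaks and 4.14 for Sox9 peaks at the Sox6 gene, and -53.1 and -8.77 at the Sox5 gene. Ranked by width, widest first, it was -3.92 and -7.86 at the Sox6 gene, and 7.92 and 0 at the Sox5 gene, so that for Sox6 peaks at the Sox5 gene and for Sox9 peaks at the Sox6 gene the sign turned. The cause was not tested. Merging, windows widened by 100 kb and centres within 250 bp moved no number or share beyond its interval or by over 1.5 times. No paired analysis was possible because each factor has 1 list and no replicate. With no read depth, no score and no input track used here, weak sites and false calls cannot be told apart.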

Other observations

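Some peaks of 1 window stood close to each other in the deposited lists. With the Sox6 peaks of a window put in list order, 14 of 96 successive pairs at the Sox6 gene and 20 of 131 at the Sox5 gene were at most 4 places apart, and 3 and 6 of these pairs were directly adjacent. Sox6 peaks 50514, 50515, 50516 and 50519 all lie in the Sox5 window. Sox9 peaks 21618 and 21619 lie in the Sox6 window, 52.9 kb apart. No whole-list share counted in the same way was computed. By another count, over adjacent peaks of the whole Sox6 list, 1.54% in the first 50% and 5.65% in the last 50% lay on the same chromosome within 1000 kb of each other, and for Sox9 1.84% and 4.32%. What set the order was not tested.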
